A study of Mus musculus with 214 samples.

Results

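The 10 genes described here make and load the peptides that cells show on major histocompatibility complex (MHC) class I: the heavy chains H2-K1 and H2-D1, the light chain B2m, the peptide transporter genes Tap1 and Tap2, tapasin (Tapbp), the immunoproteasome subunits Psmb8, Psmb9 and Psmb10, and Nlrc5, the transactivator of class I genes. They were taken by symbol, and all 10 were found in both tables, among 18647 genes measured in WT mice and 19540 in Mgmt-/- mice. Their RNA was followed in the livers of mice given N-nitrosodimethylamine (NDMA) or saline as pups and collected 1, 2 or 5 days, 10 weeks or 10 months after the last injection.

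Both genotypes carried the RaDR+/+ and GPT+/+ reporter alleles on a C57BL/6 background, so the groups differed in Mgmt, which encodes the methyltransferase that repairs O6-methylguanine, and in treatment. NDMA is a nitrosamine that liver enzymes convert into a methylating agent. NDMA mice received 3.5 mg/kg on postnatal day 8 and 7 mg/kg on postnatal day 15, injected into the peritoneum, and control mice received saline on the same days. Treatment was assigned by litter, and the labels do not name the litters, so litter and treatment cannot be told apart. In time order, the WT groups held 21, 8, 7, 8 and 10 saline libraries and 26, 8, 8, 8 and 13 NDMA libraries. The Mgmt-/- groups held 12, 7, 6, 8 and 12 saline libraries and 12, 8, 8, 8 and 13 NDMA libraries. Each library was 1 mouse, and both sexes were present in every group. Reads counted at transcript 3′ ends ranged from 150038 to 4791649 a library in WT (median 1700411) and from 713584 to 7740710 in Mgmt-/- (median 2306714).

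The levels below are normalized counts, that is, read counts divided by a size factor for the library. Each genotype was normalized by itself, so levels are compared within a genotype only, and levels of different genes are not ranked because a 3′ count depends on the transcript end; the gene with the highest count of a marker list is named only to show which gene leads its sum. Mgmt itself ran from 13.0 to 130 normalized counts in WT libraries (median 45.8) and from 0 to 9.67 in Mgmt-/- libraries (median 1.15). Hepatocyte markers such as Alb and Ttr were abundant in all the libraries kept, and 5 kidney markers were at or near 0. The exceptions were 2 Mgmt-/- saline libraries of day 5, in which the kidney gene Kap reached 6147 and 7562 normalized counts; both were left out.

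Some of the libraries kept stood apart from their labels or their depth. The p53 target Cdkn1a, high after NDMA, was at 359, 212 and 109 normalized counts in WT saline libraries D209074 (day 1), D215004 (day 2) and D215012 (day 5). It was at 30.3 and 16.3 in WT NDMA libraries D209072 and D209077 of day 1, whose sex-linked genes also went against their labelled sex. Another 4 WT NDMA libraries, all of females, D215006, D215014, D215022 and D215030, held fewer than 300000 reads each. Mgmt-/- saline library D209090 of day 1 had Cdkn1a at 40.9, inside the range of its group, but was far above the rest of that group in most of the genes described here. Many of the counts and fold changes that rest on these libraries are given with and without them. The genotype by treatment terms are not given without the libraries whose Cdkn1a went against their treatment.

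MHC class I molecules carry peptides cut from a cell's own proteins to its surface, where CD8 T cells inspect them and natural killer cells sense their loss. The peptides come from the proteasome; interferon replaces its catalytic subunits Psmb5, Psmb6 and Psmb7 with Psmb8, Psmb9 and Psmb10, and the product is called the immunoproteasome. The TAP transporter moves peptides into the endoplasmic reticulum, tapasin holds empty class I beside it, and a loaded heavy chain leaves with B2m. Hepatocytes carry little class I at rest, and interferon-gamma raises it through factors that include Irf1, with Nlrc5 acting at the promoters.

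7 of the members lie in the MHC on mouse chromosome 17 (GRCm38, GENCODE annotation, all protein coding): Tapbp at chr17:33915899-33929292 on the plus strand, H2-K1 at chr17:33996017-34000347 on the minus strand, Psmb9 at chr17:34181987-34187764 on the minus strand, Tap1 at chr17:34187553-34197225, Psmb8 at chr17:34197721-34201454 and Tap2 at chr17:34203527-34216321, the last 3 on the plus strand, and H2-D1 at chr17:35262730-35267499 on the plus strand. B2m is at chr2:122147686-122153083 on the plus strand, Nlrc5 at chr8:94434356-94527272 on the plus strand and Psmb10 at chr8:105935735-105938444 on the minus strand. H2-K1 and H2-D1 are related in sequence to each other and to other heavy chains, so the split of reads between them is uncertain.

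The promoters are shown because most of the members were called higher together in Mgmt-/- livers on days 1, 2 and 5. RefSeq (GRCm38.p6) gave windows for 8 of the 10 members, with 2 starts for H2-K1; Tap2 and Nlrc5 had none. RefSeq and GENCODE starts differ, and the windows of H2-D1, Psmb8 and Tapbp lie inside the GENCODE bounds given above. The 250 bases before each start were searched on both strands for 5 short motifs, also in all 32851 such windows. TGACG, the core of the X2 box of class I promoters, was found before H2-K1, H2-D1, B2m, Tap1 and Psmb9 and in 17.8% of all windows. The starts of Psmb9 and Tap1 lie 226 bases apart on opposite strands, so their windows overlap and share 1 TGACG. The stretches of 30 bases around it are set out here on the strand of the gene, with the motif in capitals, for H2-K1 (chr17:34000371-34000400), H2-D1 (chr17:35262981-35263010), B2m (chr2:122147597-122147626) and Tap1 (chr17:34187458-34187487).
H2-K1: tccggacactgtTGACGcgcagtcagctct
H2-D1: ccgggacactgaTGACGcgctggcaggtct
B2m: ctaggagactggTGACGacctccggatctg
Tap1: cccagagacaggTGACGacagagggtcctg

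CCAAT, the Y box core, was found before H2-K1, H2-D1, B2m, Tap1, Tapbp and Psmb9 and in 33.8% of all windows. GGGNNTTCC, a kappa B site, was found before H2-K1 and H2-D1 (4.98% of all windows), GAAANNGAA, the core of an interferon-stimulated response element, before B2m alone of the members (7.13%), and TTCNNNGAA, a gamma-activated site, before Psmb8 alone (7.02%). Longer stretches of the H2-K1 promoter (chr17:34000349-34000548, minus strand) and the B2m promoter (chr2:122147486-122147685, plus strand) show how the motifs, in capitals, lie relative to each other, and a short one shows the Psmb8 match (chr17:34198088-34198116, plus strand). A match of letters is a description and no evidence of binding, and a missing match does not show that an element is absent. The pattern of the interferon-stimulated response element was searched with its blocks in a single order. The H2-K1 stretch below holds the same blocks in the other order, on the opposite strand. They stand in lower case, shortly after the kappa B site, and were not counted, so B2m is alone for the searched order only.
H2-K1: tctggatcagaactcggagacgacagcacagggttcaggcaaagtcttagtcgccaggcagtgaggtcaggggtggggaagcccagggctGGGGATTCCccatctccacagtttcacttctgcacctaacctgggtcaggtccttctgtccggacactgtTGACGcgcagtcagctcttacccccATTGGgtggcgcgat
B2m: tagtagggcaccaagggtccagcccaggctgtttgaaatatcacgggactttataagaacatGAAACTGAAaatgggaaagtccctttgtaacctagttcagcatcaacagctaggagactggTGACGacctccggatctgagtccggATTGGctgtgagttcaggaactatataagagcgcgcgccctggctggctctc
Psmb8: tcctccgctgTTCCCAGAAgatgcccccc

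In Mgmt-/- livers most of the members were higher in the first days after NDMA. Of the members tested, 7 of 10 were called higher on day 1, 9 of 9 on day 2 and 7 of 9 on day 5, and none was called lower; among all genes tested the shares called higher were 9.06%, 12.4% and 11.1%. A call needed an adjusted p under 0.05 (limma, adjusted over all genes) and a log2 fold change beyond 0.58, and fold changes are on the log2(value + 1) scale, which understates low genes. The median log2 fold change of the members was 0.98, 1.46 and 1.22 on the 3 days, beside 0.02, 0.03 and 0.03 for all genes. Nlrc5 was too low to be tested on days 2 and 5. Liver RNA comes from all its cells, so more cells of a type and more RNA per cell cannot be told apart.

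**Figure D1:**
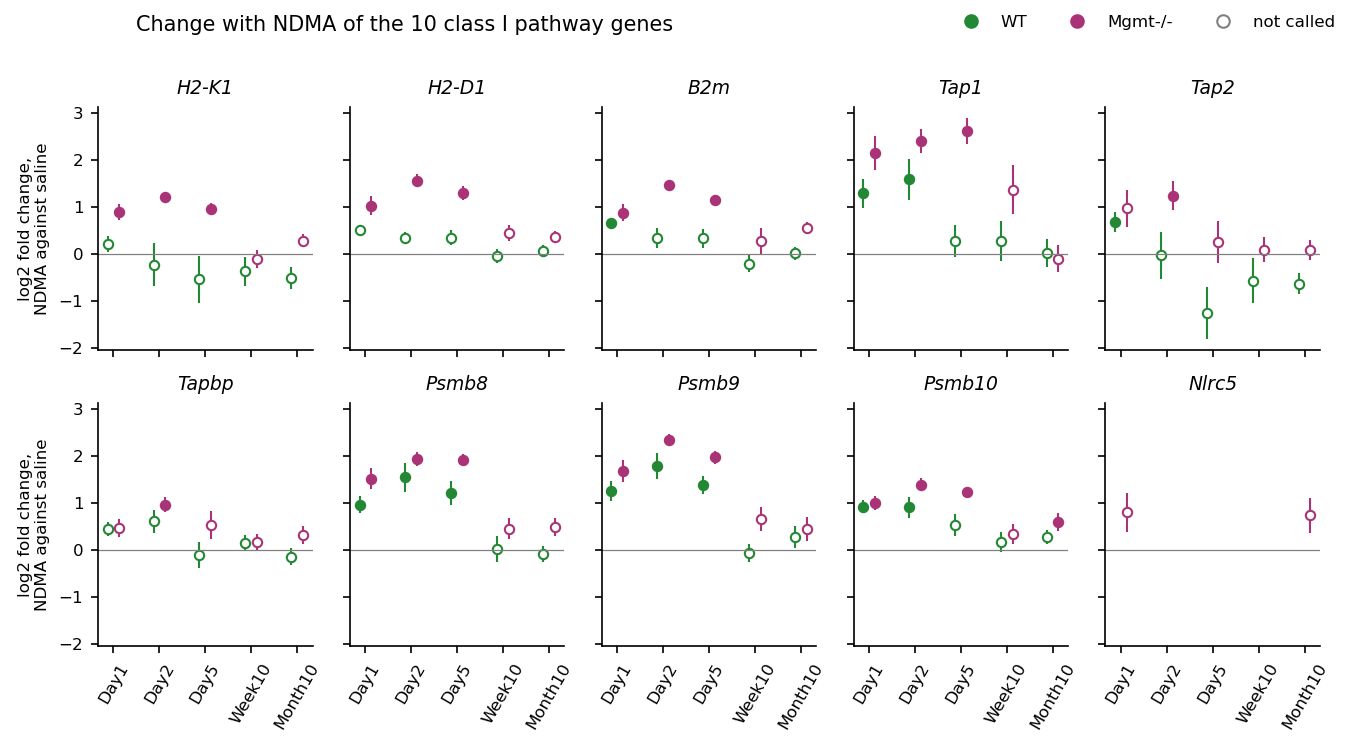
Log2 fold change (NDMA against saline, log2(value + 1) scale) of the 10 members by collection time in WT (green) and Mgmt-/- (purple) livers, with bars of 1 standard error; filled points were called and open points were not. The Mgmt-/- points on days 1, 2 and 5 sit above the WT points in all panels where both genotypes were tested, although the difference itself passed its test for 3 genes, H2-D1, B2m and Tap1.

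All 3 immunoproteasome subunits rose. Psmb9, which replaces Psmb6, ran from 76.2 to 110 normalized counts in the 7 Mgmt-/- saline livers of day 2 (median 101) and from 368 to 686 in the 8 NDMA livers (median 496). The groups did not overlap, and the log2 fold change was 2.33 ± 0.13 (SE, adjusted p = 5.7e-13), a 5.02-fold difference. On day 5 Psmb9 again separated the groups, with 83.0 to 161 in saline (median 122) against 381 to 569 in NDMA livers (median 459; log2 fold change 1.97 ± 0.14, adjusted p = 1.4e-10). On day 1 the saline range reached up to 640 (median 114) because of library D209090, the next saline library being at 208, and the NDMA livers ran from 257 to 621 (median 454; log2 fold change 1.68 ± 0.24, adjusted p = 4.9e-06). Without D209090, the log2 fold change of day 1 was 1.89.

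Psmb8, the counterpart of Psmb5, followed the same course. Its saline and NDMA medians in Mgmt-/- livers were 84.3 and 275 normalized counts on day 1, 76.2 and 306 on day 2, and 78.8 and 287 on day 5. On days 2 and 5 the highest saline libraries, at 108 and 110, were below the lowest NDMA libraries, at 255 and 242 (log2 fold changes 1.94 ± 0.15 and 1.90 ± 0.13, adjusted p = 1.3e-10 and 7.3e-11). Psmb10, the counterpart of Psmb7, rose less: its log2 fold changes were 0.99 ± 0.14, 1.38 ± 0.14 and 1.22 ± 0.11 on days 1, 2 and 5 (adjusted p = 1.2e-06, 3.5e-08 and 1.1e-08). On day 2 it ran from 184 to 276 in saline livers (median 203) and from 409 to 820 in NDMA livers (median 575).

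The transporter gene Tap1 had the largest fold change among the members on days 1, 2 and 5, from a low level. It ran from 3.09 to 14.0 normalized counts in Mgmt-/- saline livers of day 2 (median 8.14) and from 31.3 to 61.3 in NDMA livers (median 49.0), with no overlap (log2 fold change 2.39 ± 0.25, adjusted p = 4.8e-08). On day 5 the medians were 8.38 and 41.9 (2.62 ± 0.27, adjusted p = 8.3e-08), again with no overlap. On day 1 they were 11.7 and 60.5 (2.15 ± 0.35, adjusted p = 4.8e-05), and D209090, at 108, exceeded all but 2 of the 12 NDMA livers. Its partner Tap2, the other chain of the transporter, passed the test on day 2 alone (1.24 ± 0.30, adjusted p = 0.0028), with log2 fold changes of 0.97 on day 1 (adjusted p = 0.071) and 0.26 on day 5 (adjusted p = 0.74). Tapbp, which bridges TAP and class I, also passed on day 2 alone: saline livers ran from 41.1 to 125 (median 66.2) and NDMA livers from 91.2 to 174 (median 134), and the log2 fold change was 0.96 ± 0.17 (adjusted p = 6.8e-05). When single libraries were left out on day 5, Tap2 ran from -0.09 to 0.64 and Tapbp from 0.30 to 0.79, and Tapbp was called without saline D389018 (0.79).

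Both chains of the class I molecule itself also rose. H2-K1 ran from 313 to 504 normalized counts in Mgmt-/- saline livers of day 2 (median 409) and from 798 to 1247 after NDMA (median 932), a 2.31-fold difference. H2-D1 went from 219 to 375 (median 249) to 628 to 1191 (median 766), and B2m, the light chain shared by all class I molecules, from 2972 to 4545 (median 3731) to 8845 to 12543 (median 9446). The log2 fold changes on day 2 were 1.21 ± 0.12 for H2-K1, 1.56 ± 0.14 for H2-D1 and 1.46 ± 0.11 for B2m (adjusted p = 9.2e-09, 1.8e-09 and 9.6e-11). On day 5 they were 0.95 ± 0.13, 1.29 ± 0.14 and 1.15 ± 0.10, and on day 1 they were 0.90 ± 0.17, 1.03 ± 0.20 and 0.88 ± 0.18. No saline library overlapped the NDMA livers for these 3 genes on days 2 and 5.

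For 7 of the 9 members tested, every Mgmt-/- NDMA liver was above every saline liver on day 2, and the same count held on day 5; among all genes tested this was so for 6.19% and 6% respectively. On both days these were H2-K1, H2-D1, B2m, Tap1, Psmb8, Psmb9 and Psmb10. On day 1 no member of 10 tested separated the groups in this way, beside 78 of 10055 genes, so this is no result about the members. D209090 was the highest saline library of day 1 for H2-K1 (1389), H2-D1 (1000), B2m (7551), Tap1, Tapbp (152), Psmb8 (519), Psmb9, Psmb10 (482) and Nlrc5 (22.3). Without D209090, chosen after its values were seen, Tap2 (1.11) and Nlrc5 (1.05) were also called on day 1. The share of all genes called in that fit was not set beside this, so it is no result about the members as a set.

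**Figure D2:**
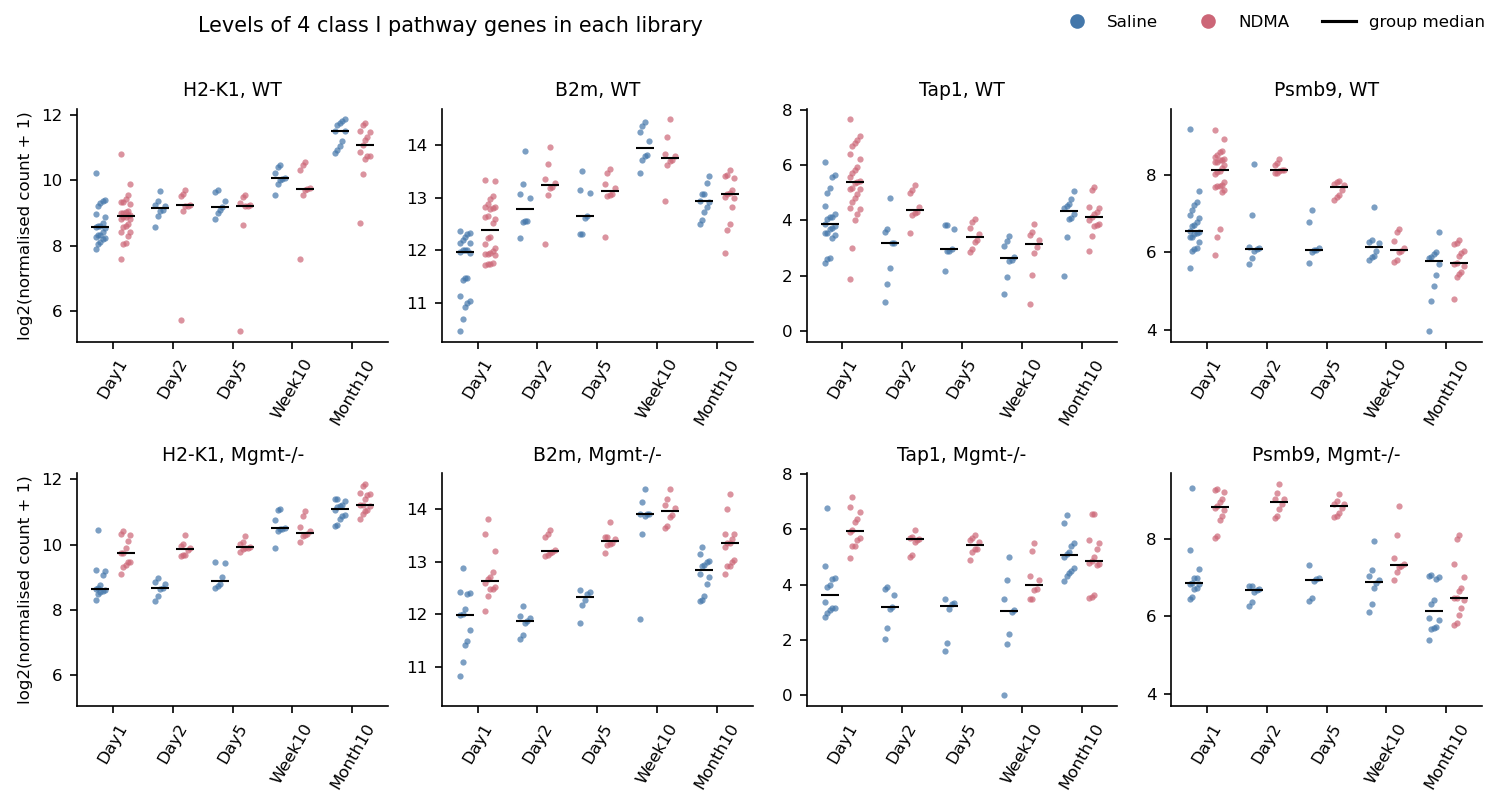
Level of H2-K1, B2m, Tap1 and Psmb9 in each library, as log2(normalized count + 1), by collection time, for saline (blue) and NDMA (red) livers of WT (top) and Mgmt-/- (bottom) mice; bars are group medians, and heights are not comparable between the rows because each genotype was normalized by itself. On days 2 and 5 all 8 Mgmt-/- NDMA livers are above every saline liver for these 4 genes, and the lowest points of H2-K1 in WT on days 2 and 5, at 52.6 and 41.0 normalized counts, are the libraries of fewest reads.

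At the later collections few members were called in Mgmt-/- livers. At 10 weeks 0 of 9 members tested were called higher by limma, by edgeR or by DESeq2, although 3 had an unadjusted p under 0.05, while 7.27% of all genes were called higher. With library totals made equal, 3 members were called at 10 weeks, and the share of all genes in that fit was not set beside this. All 8 NDMA livers were above the saline median for Tap1 (7.34 against an NDMA median of 15.1 normalized counts; log2 fold change 1.37, adjusted p = 0.091), Psmb9 (118 against 159; 0.66, adjusted p = 0.099) and H2-D1 (477 against 663; 0.45, adjusted p = 0.11). For Tap1 and Psmb9 the call turned on 1 saline library each. Tap1 was called without D209001 (1.68), the highest saline library at 31.3, and Psmb9 without D209004 (0.80), the highest at 246.

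At 10 months 1 of 10 members tested, Psmb10, was called higher, beside 4.75% of all genes. It ran from 82.6 to 182 normalized counts in 12 saline livers (median 108) and from 102 to 368 in 13 NDMA livers (median 153), so the groups overlapped although 12 of 13 NDMA livers were above the saline median (log2 fold change 0.59 ± 0.19, adjusted p = 0.040). The call was lost with a pseudocount of 5 (0.58, short of the fold threshold), with no filter on low values (adjusted p = 0.058), with treatment alone in the fit (adjusted p = 0.057) and in females alone (0.13), whereas edgeR called Psmb10 and Psmb8, and DESeq2 these and B2m. B2m had an adjusted p of 0.0052 with a log2 fold change of 0.55, short of the fold threshold. H2-K1 was 0.28, H2-D1 0.36 and Tap1 -0.10, none of which passed. The median of the members was 0.33 at 10 weeks and 0.40 at 10 months, beside 0.04 and -0.01 for all genes.

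In WT livers members of the same pathway were called on the first days and none later. Of 9 members tested, 6 were called higher on day 1 (B2m, Tap1, Tap2 and the 3 immunoproteasome genes), 4 on day 2 (Tap1 and the 3 immunoproteasome genes) and 2 on day 5 (Psmb8 and Psmb9), beside 5.01%, 3.33% and 2.22% of all genes. On day 5, 5 members had an unadjusted p under 0.05, 4 higher and 1 lower. The lower one was Tap2, with a log2 fold change of -1.26 ± 0.55 (adjusted p = 0.22), from -1.48 to -0.91 when single libraries were left out. At 10 weeks and 10 months 0 of 9 were called by limma, edgeR or DESeq2, with 0 and 2 at an unadjusted p under 0.05, the latter 2 lower after NDMA; 0.0249% and 0% of all genes were called higher. The member medians were 0.68, 0.61, 0.33, -0.04 and 0.02 in time order, and those of all genes lay between -0.08 and -0.03. Nlrc5 was under the limit of a mean of 5 normalized counts at each time, with group medians from 0.574 to 4.39.

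Psmb9 was called in WT livers on days 1, 2 and 5. On day 5 the 7 saline livers ran from 51.3 to 136 normalized counts (median 65.9) and the 8 NDMA livers from 161 to 228 (median 203), with no overlap (log2 fold change 1.38 ± 0.19, adjusted p = 0.0020). Psmb8 also separated these groups, from 23.8 to 77.1 in saline (median 55.3) and 86.0 to 230 after NDMA (median 111; 1.21 ± 0.25, adjusted p = 0.010), and was still called without D215014 (1.07). On day 2 Psmb9 ran from 50.9 to 309 in saline (median 67.2) and from 261 to 335 after NDMA (median 276), and the saline library at 309 was D215004, whose Cdkn1a was also high, the next being at 123. The log2 fold change of day 2 was 1.78 ± 0.27 (adjusted p = 0.00062), and it was 2.05 without that library.

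On day 1 the WT ranges overlapped for all members. Psmb9 ran from 47.6 to 573 normalized counts in 21 saline livers (median 93.1) and from 60.1 to 564 in 26 NDMA livers (median 278), with 24 of 26 NDMA livers above the saline median (log2 fold change 1.25 ± 0.21, adjusted p = 1.5e-05). The value of 573 belonged to D209074, and the NDMA libraries D209077 and D209072 were at 82.8 and 95.5. Tap1 had medians of 13.6 and 40.3 (1.29 ± 0.31, adjusted p = 0.0019), Psmb10 of 156 and 345 (0.91 ± 0.14, adjusted p = 1.5e-06), and Psmb8 of 75.8 and 187 (0.96 ± 0.17, adjusted p = 2.8e-05). Without the 3 libraries whose Cdkn1a went against their treatment, H2-D1 (0.61) joined the 6 calls and Psmb9 stood at 1.50.

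Neither WT heavy chain was called. H2-K1 had medians of 377 and 479 normalized counts on day 1 (log2 fold change 0.21, adjusted p = 0.41), 574 and 602 on day 2 (-0.23, adjusted p = 0.83) and 577 and 598 on day 5 (-0.54, adjusted p = 0.62). The negative fold changes beside nearly equal medians came with libraries D215006 and D215014, at 52.6 and 41.0 normalized counts, and without them the values were 0.24 and -0.01. The same libraries were the highest of their groups for Psmb8 (526 and 230) and Psmb10 (799 and 525). H2-D1 was 0.50 on day 1 with an adjusted p of 0.0017, short of the fold threshold. The Tap1 call of day 2 depended on single libraries: its log2 fold change of 1.58 (adjusted p = 0.033) missed the threshold when any of 9 of the 16 libraries was left out (saline D202001, D202002, D215001, D215002 and D215003, NDMA D202005, D202008, D215005 and D215008), with values from 1.30 to 1.62.

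A genotype by treatment term tested whether the response differed between WT and Mgmt-/- mice. All 9 members tested had a larger log2 fold change in Mgmt-/- livers on days 1, 2 and 5, but few of the differences passed. On day 2 the terms of H2-D1 (1.22 ± 0.18, adjusted p = 0.00010) and B2m (1.13 ± 0.26, adjusted p = 0.0066) passed, beside 6.06% of all genes in either direction. On day 5 those of H2-D1 (0.95 ± 0.22, adjusted p = 0.015) and Tap1 (2.34 ± 0.44, adjusted p = 0.0019) passed, beside 2.12%. On day 1, at 10 weeks and at 10 months 0 of 9 passed in limma or edgeR, with 2, 2 and 4 at an unadjusted p under 0.05, beside 0.832%, 4.44% and 0.911% of all genes. For Psmb9 the term was 0.55 ± 0.32 on day 2 (95% interval -0.08 to 1.18, adjusted p = 0.35).

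On days 2 and 5 and at 10 weeks no library batch held both genotypes, so batch and genotype cannot be told apart in that term. Without the WT libraries of fewer than 300000 reads, H2-K1 (0.97) also passed on day 2, and H2-K1 (0.96), B2m (0.65) and Psmb10 (0.89) were added on day 5. With the 2 libraries holding kidney transcripts put back, Tap1 (2.56) was the member that passed on day 5. The share of all genes passing in these refits was not set beside them, so they are no result about the members as a set. The terms of all genes had medians of 0.10 and 0.11 on days 2 and 5.

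The balance of the 2 kinds of catalytic subunit is shown by their share of RNA within a library, which does not depend on the size factor. On day 1 the share ran from 25.3% to 65.1% in Mgmt-/- saline livers (median 29.8%) and from 32.7% to 55.4% in NDMA livers (median 48.4%), so that 0 of 12 NDMA livers were above all saline livers. The value of 65.1% was that of D209090; the next saline liver was at 32.8%, and 11 of 12 NDMA livers were above it. In Mgmt-/- saline livers of day 2, Psmb8, Psmb9 and Psmb10 made up 22.6% to 29.0% of the summed normalized counts of the 6 catalytic subunit genes (median 27.1%). In the NDMA livers they made up 45.0% to 56.3% (median 53.9%), with no overlap. On day 5 the range was 24.7% to 31.3% in saline (median 28.3%) and 45.8% to 56.5% after NDMA (median 47.7%). The groups were nearer at 10 weeks (medians 27.2% and 31.7%), although 7 of 8 NDMA livers were above all 8 saline livers, and at 10 months (31.2% and 37.5%) 5 of 13 were. These shares carry no p, since they combine members chosen with earlier results known.

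In WT livers the median share went from 28.9% to 39.9% on day 1, from 22% to 36.2% on day 2 and from 19.7% to 29.6% on day 5, all with overlap, and was 17.6% and 17.0% at 10 weeks and 28.1% and 24.5% at 10 months. On day 2 the highest saline liver was D215004, at 49.9%, just above the highest NDMA liver at 48.6%. Among the constitutive genes, Psmb5 and Psmb6 were called in no NDMA comparison, and Psmb7 in 1, Mgmt-/- day 5 (0.64, adjusted p = 0.00086). On day 2 in Mgmt-/- livers Psmb6 had a log2 fold change of 0.16 and Psmb5 one of -0.45 (adjusted p = 0.089).

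**Figure D3:**
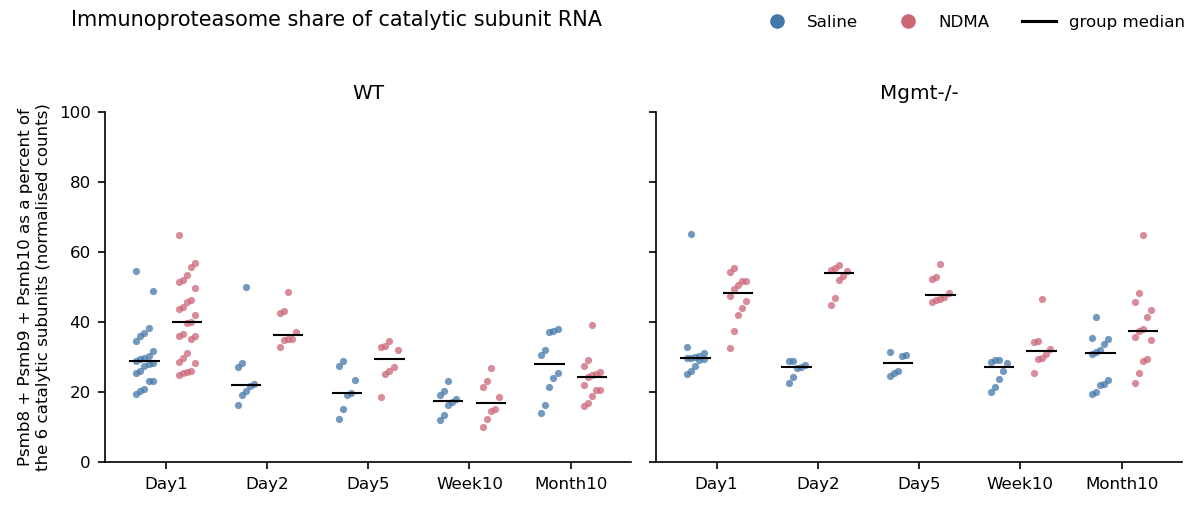
Share of Psmb8, Psmb9 and Psmb10 in the summed normalized counts of the 6 catalytic subunit genes (percent) in each library, for saline (blue) and NDMA (red) livers by collection time and genotype; bars are medians. In Mgmt-/- mice the NDMA livers of days 2 and 5 lie between 45.0% and 56.5% and the saline livers of those days at 31.3% or below.

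The day 1 values varied between library batches. In Mgmt-/- mice, batch 191212Eng alone (16 libraries) called 8 members higher, and 913 of 9781 genes in all, with Psmb9 at 2.11, Tap1 at 2.66 and Nlrc5 at 1.45. Batch 200803Eng alone (8 libraries) called 0 members and 271 of 10268 genes higher; Psmb9 was at 0.83 and Tap1 at 1.12 there. In WT mice, batch 191212Eng alone (16 libraries) called 8 members and 485 of 8911 genes higher with Psmb9 at 1.52, batch 210901Eng alone (21 libraries) called 6 members and 567 of 8914 genes with Psmb9 at 1.47, and batch 200803Eng alone (10 libraries) called 0 members and 0 genes, with Psmb9 at 0.20. Batch 200803Eng held D209072, D209074, D209077 and D209090. On days 2 and 5 in WT mice the batches were also the sexes: the males alone called 6 and 3 members higher, beside 449 of 8505 and 678 of 8492 genes, with Psmb9 at 1.88 and 1.69, and the females alone called 0 members and 0 genes. The female batch held the doubted saline libraries D215004 (day 2) and D215012 (day 5). It also held the low-read NDMA libraries D215006 (day 2) and D215014 (day 5).

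No member had a sex by treatment term that passed at any time in either genotype, in limma with adjusted p alone. Members with an unadjusted p under 0.05 numbered 0 to 3, and the shares of all genes that passed were 0% in 8 of the comparisons and 0.114% and 0.338% in Mgmt-/- mice at 10 weeks and 10 months. In Mgmt-/- mice both sexes alone called B2m, H2-D1, Psmb8, Psmb9 and Psmb10 on days 1, 2 and 5, in fits that called between 571 and 813 genes higher. At 10 months the 11 males alone called Psmb8 (0.94), Psmb9 (1.27) and Psmb10 (1.19) among 415 genes called higher, and the 14 females alone called 0 members among 137; this difference did not pass its test.

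Other genes of the pathway were counted from fixed lists. The lists of these genes were written with earlier results of these data known, and those named for being among 5 or fewer calls were chosen after their values were seen. Among 16 other class I heavy chain genes, 3 of 9 tested were called higher and 1 lower in Mgmt-/- livers on day 1, 3 of 8 and 2 on day 2, and 4 of 10 and 2 on day 5. Among all genes tested there, 9.06%, 12.4% and 11.1% were called higher and 8.64%, 7.5% and 6.71% lower on these days. H2-T22, a nonclassical class I gene, went from a median of 95.8 to 312 normalized counts on day 2 (log2 fold change 1.79, adjusted p = 2.1e-11) and was also called in WT on days 1, 2 and 5 (0.79, 1.11 and 1.01). H2-Q7 (1.97, 1.83 and 1.72 on days 1, 2 and 5) and H2-M3 (0.93 and 1.56 on days 2 and 5) also rose in Mgmt-/- livers. H2-Q1 was called lower on all 3 days there and H2-Q10, a heavy chain secreted by hepatocytes, on days 2 and 5. In WT livers H2-Q1 was called lower on days 2 and 5 and H2-Q10 on day 5, beside 2.91% and 1.39% of all genes on these days, and H2-Q7 was called higher on day 1 (0.89). At the later times H2-Q1 was called higher in Mgmt-/- livers at 10 weeks and 10 months, in the latter with H2-Q6. Reads of these genes may be split with heavy chain genes of related sequence.

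Of 7 genes for peptide loading and trimming, 2 were called, both higher in Mgmt-/- livers on day 2, beside 12.4% of all genes: the trimming peptidase Erap1 (97.0 to 163 normalized counts; 0.84, adjusted p = 2.0e-05) and the tapasin relative Tapbpl (15.3 to 25.4; 0.71, adjusted p = 0.034). Calr, Canx, Pdia3 and the other loading factors were called in no NDMA comparison. Of 9 genes for proteasome activators and assembly, Psme1, a subunit of the PA28 activator, was the one called after NDMA: it went from a median of 225 to 519 on day 2 in Mgmt-/- livers (1.21, adjusted p = 7.0e-09), was 0.92 and 1.24 on days 1 and 5, and was 0.66 in WT on day 2. Among all genes 9.06%, 12.4% and 11.1% were called higher in Mgmt-/- livers on days 1, 2 and 5, and 3.33% in WT on day 2. In Mgmt-/- livers the count of 1 of 9 is near these shares and is no result about the list. Its partner Psme2 was called in no NDMA comparison (0.49 on Mgmt-/- day 2, adjusted p = 0.11), and the assembly factor Pomp stayed short of the fold threshold (0.40, adjusted p = 0.0018).

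Among the regulators, Irf1, Irf8 and Irf9, transcription factors of the interferon response, were called higher on days 1, 2 and 5 in Mgmt-/- livers and on day 1 in WT livers, beside 9.06%, 12.4% and 11.1% of all Mgmt-/- genes and 5.01% of WT genes. Irf2, Stat2, Nfkb1, Rela, Rfxank and Rfxap were tested on these days as well and were called in no NDMA comparison, and Rfx5 and Socs1 were below the filter on these days. Irf1 ran from a saline median of 40.7 to an NDMA median of 155 normalized counts in Mgmt-/- livers of day 2 (log2 fold change 1.88, adjusted p = 3.0e-09). In WT livers Irf1 was 1.14 on day 1, and 0.49 on day 2 and -0.66 on day 5, the last values short of the test, and its genotype by treatment term passed on day 2 (1.39). At the later times Irf8 was called in Mgmt-/- livers at 10 weeks (1.49) and 10 months (0.85), and Irf9 at 10 months. Ciita, the class II transactivator, was below the filter in all comparisons but 1.

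The interferons themselves were scarcely seen. Of 14 ligand, receptor and kinase genes, 9 were in the Mgmt-/- table and 8 in the WT table, and the calls were Ifngr1 higher in Mgmt-/- livers at 10 weeks and lower in WT livers on day 2, beside 7.27% of all genes called higher and 2.91% called lower in these comparisons. Ifng, the gene of interferon-gamma, had a median of 0 in all 10 WT groups and in all Mgmt-/- saline groups. It was detected in 6 of 12, 7 of 8 and 6 of 8 Mgmt-/- NDMA livers on days 1, 2 and 5 (medians 0.238, 1.28 and 1.05 normalized counts), and no library held more than 7 reads of it. It was below the filter and not tested.

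Leukocyte markers moved with these results. In Mgmt-/- livers, 4 of 4 general leukocyte markers (Ptprc, Cd52, Coro1a and Laptm5) were called higher on days 1, 2 and 5 and at 10 months, and 2 of 4 at 10 weeks; the shares of all genes called higher were 9.06%, 12.4%, 11.1%, 7.27% and 4.75% in time order. Their summed level had a median of 200 normalized counts in saline and 839 in NDMA livers of day 2, with the highest count in Cd52, at 99.1 and 519. Of 14 T and NK cell markers, 5 of 6 tested were called higher on day 1, 7 of 7 on day 2, 7 of 7 on day 5 (beside the same 9.06%, 12.4% and 11.1%) and 1 of 4, Nkg7, at 10 weeks (beside 7.27%), while at 10 months 0 passed the filter. On days 1, 2 and 5 the summed medians went from 56.0 to 183, 60.7 to 399 and 46.0 to 424. Gzma had the highest count in the NDMA livers of these days (52.1, 133 and 119), and Cd3e and Prf1 had a median of 0 in saline livers on all 3 days. The part of these cells in the results above was not tested.

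Macrophage and Kupffer cell markers were also called at times when few class I genes were. Of 12 in Mgmt-/- livers, 2 were called higher and 3 lower on day 1, then 7, 8, 7 and 5 higher on day 2, day 5, at 10 weeks and at 10 months, with summed medians of 1136 and 2205 normalized counts in saline and NDMA livers at 10 weeks, where 0 of 9 members were called. Among all genes 9.06%, 12.4%, 11.1%, 7.27% and 4.75% were called higher in time order, and 8.64% lower on day 1. Lyz2 had the highest count (228 and 793). In WT livers 4 were higher and 1 lower on day 1, 2 and 2 on day 2, 2 and 0 on day 5, and 0 later, beside 5.01%, 3.33% and 2.22% of all genes higher on days 1, 2 and 5 and 4.19% and 2.91% lower on days 1 and 2. General leukocyte markers were called in 2, 1 and 2 of 4 on days 1, 2 and 5 in WT, and T and NK markers in 4 of 5, 4 of 6 and 3 of 6, and no leukocyte marker at 10 weeks or 10 months. Of the T and NK markers 0 of 2 tested were called in WT at 10 weeks, and at 10 months 0 passed the filter, so none could be called.

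Markers of the other liver cells were mixed or lower. Of 5 hepatocyte markers in Mgmt-/- livers, 3, 3, 1 and 1 were called lower on day 1, day 2, day 5 and at 10 weeks (summed medians 362767 and 241145 normalized counts on day 2, led by Alb), and 1, Apoa1, was called higher at 10 months; 8.64%, 7.5%, 6.71% and 3.88% of all genes were called lower at the first 4 times. Of 8 endothelial markers, 1 was called higher and 5 lower on day 1, 2 and 1 on day 2, and 2 and 3 on day 5; 9.06%, 12.4% and 11.1% of all genes were called higher on these days. B and plasma cell markers (Cd79b lower on day 1, Jchain higher at 10 weeks) were otherwise not called, and all 5 dendritic cell and all 5 kidney markers were under the filter in the Mgmt-/- comparisons. Dendritic cell markers summed to medians of 5.14 in saline and 14.9 in NDMA livers of day 2, and Flt3 was at 0 in both.

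The saline mice show the same genes from the juvenile liver to the adult. Between day 1 and 10 months H2-K1, H2-D1 and Tapbp were called higher and Psmb8, Psmb9 and Psmb10 lower in both genotypes, while Tap1 passed in neither. Against day 1, with sex and library batch in the fit, 3 members were called higher and 3 lower at 10 months in WT mice, and 4 and 3 in Mgmt-/- mice. Much else changed: at 10 months 27.7% of all WT genes were called higher and 21.1% lower, and 26.6% and 24.5% of Mgmt-/- genes, with all-gene medians of 0.27 and 0.12. The shares are near those of the members, so the count itself is no result about them. Batches overlapped between ages only in part.

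H2-K1 had the largest rise with age among the members. Its WT saline libraries ran from 239 to 1190 normalized counts on day 1 (median 377), 379 to 811 on day 2 (574), 453 to 839 on day 5 (577), 752 to 1423 at 10 weeks (1069) and 1833 to 3735 at 10 months (2919). The 10-month libraries lay above all younger ones, and days 2 and 5 did not pass against day 1 (adjusted p = 0.95 and 0.99), although without library batch in the fit day 5 did (0.58, adjusted p = 0.031). The log2 difference at 10 months was 2.33 ± 0.28 (adjusted p = 4.6e-10), a 5.02-fold rise. In Mgmt-/- saline livers the medians were 402, 409, 479, 1456 and 2206, with log2 differences of 1.36 ± 0.23 at 10 weeks (adjusted p = 8.9e-06) and 1.81 ± 0.22 at 10 months (adjusted p = 9.7e-10).

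B2m peaked in between. Its saline medians were 3966, 7073, 6397, 15806 and 7779 normalized counts in WT and 4085, 3731, 5160, 15451 and 7380 in Mgmt-/- livers in time order. At 10 weeks it was higher than on day 1 by a log2 difference of 1.41 ± 0.27 in WT (adjusted p = 0.00014) and 1.17 ± 0.25 in Mgmt-/- (adjusted p = 0.00046), and at 10 months the differences, 0.43 and 0.25, did not pass. They were called with time and sex alone in the fit (1.24 and 0.89), and the WT one also with libraries scaled to the same total (0.68, adjusted p = 0.0048). Calls higher at 10 weeks numbered 1 in WT (B2m, beside 4.01% of all genes) and 2 in Mgmt-/- (B2m and H2-K1, beside 7.35%). On days 2 and 5 no member was called against day 1 by limma: 1 and 2 had an unadjusted p under 0.05 in WT (0.707% and 0.431% of all genes called) and 0 and 1 in Mgmt-/- (0.0405% and 5.23%), and edgeR called 0, 0, 0 and 1, the last B2m.

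H2-D1 and Tapbp rose at 10 months in both genotypes. H2-D1 medians went from 315 on day 1 to 615 normalized counts in WT (0.77 ± 0.26, adjusted p = 0.011) and from 274 to 663 in Mgmt-/- livers (0.87 ± 0.23, adjusted p = 0.0012); edgeR called neither. Tapbp had WT medians of 63.9, 42.8, 37.1, 35.9 and 130 in time order, and was called at 10 months (1.73 ± 0.36, adjusted p = 6.1e-05). In Mgmt-/- livers it was 69.2 on day 1 and 165 at 10 months (1.06 ± 0.28, adjusted p = 0.0014), and Tap2 was also called there (7.87 to 21.0; 1.55 ± 0.45, adjusted p = 0.0033), though not by edgeR. The size of the WT Tapbp differences depended on the batch term. Without library batch in the fit Tapbp was 0.96 at 10 months, still called. At 10 weeks it was -0.84 and called lower, against 0.13 and no call with batch.

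Psmb9 and Psmb10 fell at 10 months. Psmb9 went from a median of 93.1 on day 1 to 53.6 normalized counts in WT (-2.06 ± 0.47, adjusted p = 0.00033) and from 114 to 69.7 in Mgmt-/- livers (-1.53 ± 0.28, adjusted p = 1.0e-05). Psmb10 went from 156 to 88.6 (-1.25 ± 0.30, adjusted p = 0.00046) and from 217 to 108 (-1.24 ± 0.21, adjusted p = 2.7e-06). Without library batch in the fit the WT differences of Psmb9 and Psmb10 were -1.22 and -1.04, both still called, so the size depends on the batch term. Their constitutive counterparts fell too, with log2 differences of -1.10 and -0.68 for Psmb6 and -1.01 and -0.58 for Psmb7 in WT and Mgmt-/- livers, all called. Psmb8 was called lower (-0.89, adjusted p = 0.0496, and -0.90, adjusted p = 0.0032), but its medians were 75.8 and 79.6 in WT and 84.3 and 114 in Mgmt-/- livers, and without library batch in the fit the Mgmt-/- difference was 0.032 and the WT one -0.23.

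The doubted saline libraries weighed on the age results. Without D209074, D215004, D215012 and D209090, Psmb8 was no longer called at 10 months (-0.45 and -0.36), whereas Psmb9 (-1.55 and -0.96), Psmb10 (-0.85 and -0.91), H2-K1 (2.39 and 2.20) and Tapbp (1.99 and 1.42) still were. The calls lower at 10 weeks, Psmb8 in WT (-1.37, adjusted p = 0.048, beside 5.47% of all genes) and Psmb9 and Tap1 in Mgmt-/- livers (-0.88 and -1.66, beside 9.44%), were all lost without them. In WT mice the later ages could also be set against day 2 within 2 batches that held both: at 10 months H2-K1 (2.42), Tap1 (1.10), Tap2 (1.00) and Tapbp (1.31) were higher, Psmb9 (-0.96) and Psmb10 (-1.16) lower, and Psmb8 was 0.16. In that fit 3328 of 8877 genes were called higher at 10 months and 2238 lower, so the number of member calls is itself no result about the members.

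**Figure D4:**
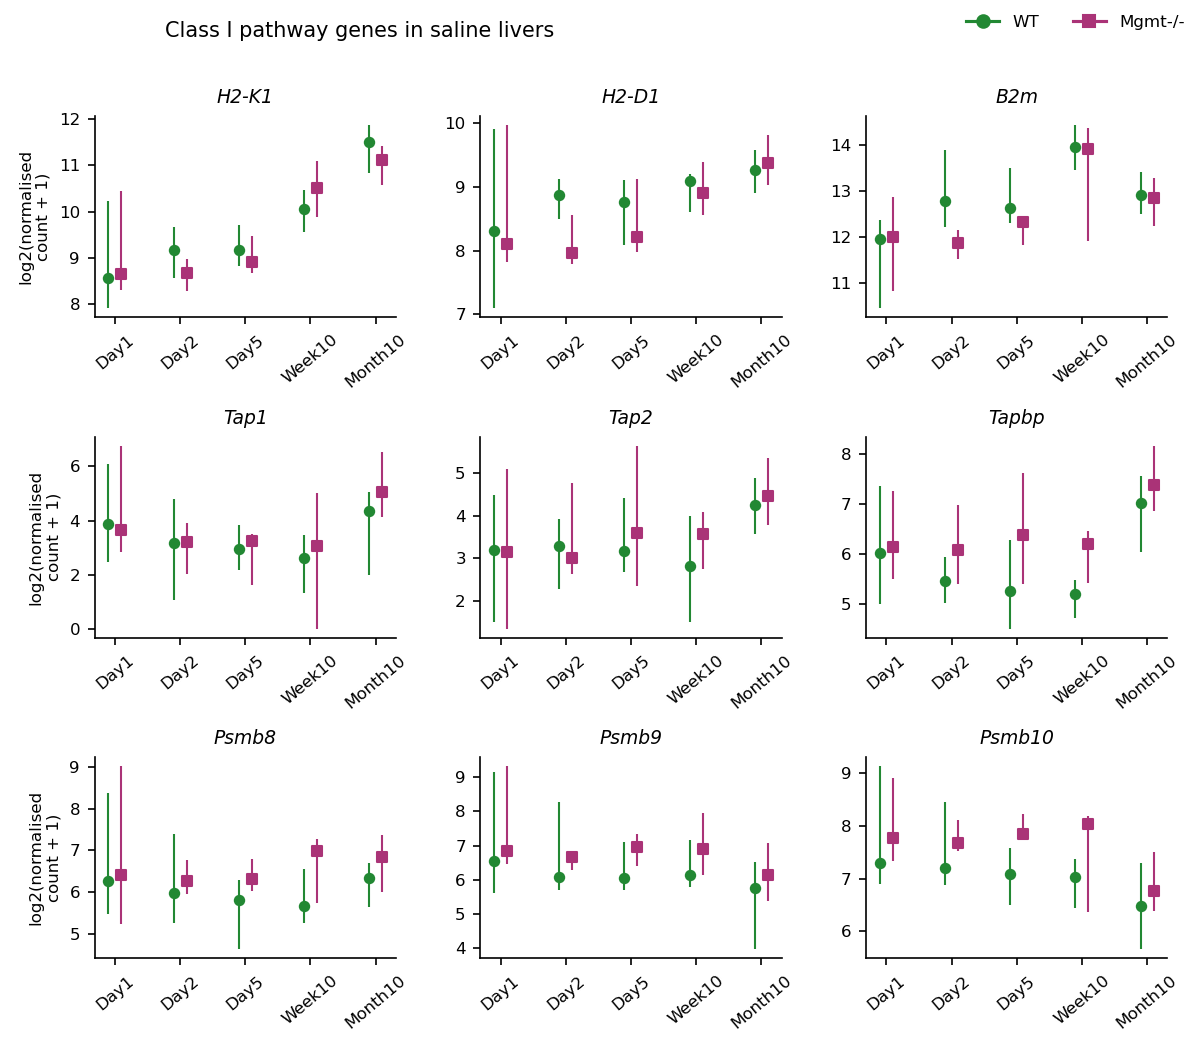
Levels of 9 members in saline livers by collection time in WT (green circles) and Mgmt-/- (purple squares) mice, as log2(normalized count + 1); points are group medians and bars run from the lowest to the highest library, and the genotypes were normalized separately. H2-K1 climbs from medians of 377 and 402 on day 1 to 2919 and 2206 at 10 months, B2m is highest at 10 weeks, and Psmb9 and Psmb10 are lowest at 10 months.

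The other lists of the pathway were counted in the same way. Of 7 other class I heavy chains tested in WT mice at 10 months, 1 was called higher (H2-Q10) and 2 lower (H2-M3 and H2-T23), and of 8 in Mgmt-/- mice 1 higher (H2-Q10) and 1 lower (H2-T23). At 10 months 5 of 7 peptide loading genes were called higher in both genotypes (Calr, Canx, Erap1, Lnpep and Pdia3), and 6 of 9 proteasome activator and assembly genes were called lower in both (Pomp, Psme1, Psme2, Psmg2, Psmg3 and Psmg4). Of the same 9 genes, Psme4 was called higher in both genotypes and Psme3 in WT mice. These stand beside 27.7% of all genes called higher and 21.1% lower in WT, and 26.6% and 24.5% in Mgmt-/- mice. Markers of several immune lists were lower at that age as well, beside the same 21.1% and 24.5% of all genes: 4 of 4 T and NK markers tested in both genotypes, 10 of 12 macrophage markers in WT and 11 of 12 in Mgmt-/- livers, and 1 and 3 of 4 general leukocyte markers. Of 2 B and plasma cell markers tested, Jchain was called higher and Cd79b lower in both genotypes. The summed T and NK markers went from medians of 50.7 on day 1 to 17.5 normalized counts in WT and from 56.0 to 10.8 in Mgmt-/- livers. Their part in the age results was not tested.

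Iigp1, Cxcl9, Parp14 and Gbp7 were among the 5 genes whose pattern was most like that of the members over all libraries. Likeness was the Pearson correlation of a gene's log2(value + 1) with the members' mean standardized value within a table, ranked by the lower of the WT (117 libraries) and Mgmt-/- (94 libraries) values. It was 0.754 and 0.854 for Iigp1, an interferon-inducible GTPase, and 0.707 and 0.887 for Cxcl9, a chemokine that attracts T cells. Among the members, within genotype, treatment, time and library batch, the median correlation of 45 pairs was 0.32 in WT and 0.27 in Mgmt-/- livers. The highest pair was Psmb8 with Psmb10 in WT (0.794) and Psmb8 with Psmb9 in Mgmt-/- livers (0.763), and the lowest were B2m with Tapbp (-0.375) and B2m with Tap1 (-0.424). All these values share library depth and the size factor.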

How the data were processed

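RNA of mouse livers was sequenced from transcript 3′ ends in pools of barcoded libraries. The authors used STAR for alignment (build GRCm38) and ESAT for gene counts, then deposited the counts divided by DESeq2 size factors, 1 table per genotype; these deposited values are a signal that is never negative, called normalized counts here. Tool versions, and whether molecular identifiers were collapsed, are not given in the sources used here. Columns of 213 libraries were matched to 214 labelled samples. Values fell on whole multiples of the smallest step (tolerance 0.01) in 209 libraries, which gave reads for edgeR and DESeq2; the other 4 did not enter those fits. No library's values were identical to another's.

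The members and lists were chosen with earlier results of these data known. The main test was limma with trend and robust moderation on log2(value + 1) for genes with a mean of at least 5, with sex and library batch as terms, two-sided, and Benjamini-Hochberg adjustment over all genes tested. A treatment or age difference was called where the adjusted p was below 0.05 with a log2 fold change beyond 0.58 either way; for interaction terms the adjusted p sufficed. Every comparison was limited to 1 table, other than the genotype by treatment term. Saline libraries of Mgmt-/- day 5 with Kap over 1000 were dropped. On days 1, 2 and 5 alone, libraries were said to go against their treatment where Cdkn1a was over 100 in saline or under 50 after NDMA. The rule for named genes took all 10 members, Psmb5, Psmb6 and Psmb7, and from each other list at most 3 genes with the largest absolute mean log2 fold change over the 5 Mgmt-/- comparisons among those tested in all 5, beside Ifng, Irf1 and Ciita; other pathway genes were named after their values were seen, and 1 gene the rule takes is not reported here. The alternatives changed the pseudocount (0.5 or 5), the filter (none, or a mean of 20) and the scaling (equal library totals), and tried other covariates, edgeR, DESeq2, single batches or sexes, and leaving out each library in turn where both groups held at most 8 mice (92 fits). P-values measure the spread between mice, since litters are not given. The tests were checked on simulated data. Tests ran in R 4.3.3 with limma 3.58.1, edgeR 4.0.16 and DESeq2 1.42.0, tables in pandas 2.3.3 and numpy 2.4.6 under Python 3.11.15, and plots in matplotlib 3.10.9.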

Additional observations from a re-analysis of the deposited data

Results flagged for a closer look

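A member stood far from the rest of its group in 21 of 130 groups of members examined, where 1 library's gap to its nearest neighbor took up more of the group's range than Dixon's 95% limit allows; chance alone flags about 1 in 20 groups. In WT saline day 2, library D215004 was the highest for Tap1 (27.0, next 11.8), Psmb8 (166, next 83.3) and Psmb9 (309, next 123 normalized counts). In WT NDMA day 2, library D215006 was the lowest for H2-K1 (52.6, next 534) and the highest for Psmb8 (526, next 208) and Psmb10 (799, next 341), and D202008 was the highest for Nlrc5 (5.67, next 2.06). In WT NDMA day 5, D215014 was the highest for Psmb8 (230, next 152) and Psmb10 (525, next 220), and at 10 weeks D215022 was the highest for Psmb8 (151, next 73.9) and Psmb10 (390, next 147). D215006, D215014 and D215022 each held under 300000 reads. In WT saline at 10 weeks, D202017 was the highest for Psmb9 (142, next 78.8).

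In Mgmt-/- saline day 2, D389023 was the highest for Tap2 (26.4, next 8.08) and Tapbp (125, next 73.9), and in saline day 5, D389048 was the highest for H2-D1 (556, next 331) and Psmb10 (298, next 237). B2m was highest in NDMA day 5 library D389090 (13786, next 11386). At 10 weeks the lowest saline library for Psmb8 was D209001 (52.2, next 111), the highest for Psmb9 was D209004 (246, next 145), and NDMA library D209006 was the highest for H2-D1 (1042, next 719) and Psmb9 (459, next 275).

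The response to NDMA differed between the genotypes, by the genotype by treatment term, for B2m on day 2 (1.13), for H2-D1 on days 2 (1.22) and 5 (0.95) and for Tap1 on day 5 (2.34), each larger in Mgmt-/- livers. Batch and genotype cannot be told apart on those days.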

How the results depend on the processing

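Of 1202 values of single members for NDMA against saline set beside other settings, libraries left out singly apart, 1141 stayed on the same side of the threshold with no call turned; changes of sign between values called under neither setting were not counted. Making library totals equal moved the all-gene median of the Mgmt-/- comparisons by 0.19, 0.16, 0.14 and 0.20 on days 1, 2 and 5 and at 10 weeks and that of the saline ages by 0.25 (WT) and 0.23 (Mgmt-/-) at 10 months. It turned the sign of no called member, but of several uncalled ones, such as H2-K1 in Mgmt-/- mice at 10 weeks (0.10 in place of -0.11). At 10 weeks it called 3 members in place of 0. The count of members called higher fell to 0 in batch 200803Eng alone (WT and Mgmt-/- day 1) and in batch 200724Eng, the females, alone (WT days 2 and 5). For Mgmt-/- at 10 weeks, leaving out 1 library at a time gave 0 to 1. For Mgmt-/- at 10 months the count of 1 became 0 with a pseudocount of 5, no filter, treatment alone or females alone, 2 with edgeR or adjusted p alone, and 3 with DESeq2 or males alone. Genotype terms of day 5 went from 2 to 5 without libraries under 300000 reads and to 1 with the kidney libraries. The share of all genes called was not set beside the counts of this paragraph, so they are no result about the members as a set. The log2 immunoproteasome ratio of Mgmt-/- day 2 rose by 1.86 as a mean of 3 pair ratios, against 1.60 for sums.

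For saline ages in WT mice, time and sex alone called 1 higher and 1 lower on day 2, 2 and 1 on day 5, 3 and 3 at 10 weeks and 5 higher at 10 months, with Psmb9 and Psmb10 lower there, and turned Tapbp at 10 weeks to -0.84. Of 9050 genes these fits called 621, 491, 1072 and 3298 higher in time order and 945, 510, 2268 and 2202 lower. The main fit called 32, 22, 363 and 2505 higher and 32, 17, 495 and 1914 lower, so calls of all genes rose as well. Calls lower at 10 weeks went to 0 with a pseudocount of 0.5, no filter, edgeR, without the doubted libraries or against day 2 within 2 batches, which called 2 higher there and turned Psmb8 at 10 months to 0.16. In Mgmt-/- mice, 1 was higher on day 5 with a mean of 20, with edgeR or within batches holding both times. At 10 weeks calls lower were 1 with a mean of 20 and 0 with time and sex alone, without the doubted libraries or within such batches, which called 1 higher. At 10 months edgeR called 2 higher, and time and sex alone turned Psmb8 to 0.032. The cause of these changes was not tested. The settings that leave out doubted libraries, fit 1 sex, drop low-read libraries from the genotype terms or set WT ages against day 2 were chosen after seeing the data. No paired analysis was possible because the labels give each library its own number, which no other library shares, and name no mouse. At these depths Nlrc5, Tap2, Tap1 and Ifng rest on few reads a library.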
